A study of Mus musculus with 3 samples.

Results

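Mouse genes named Zfp followed by a number encode zinc finger proteins. Their mRNAs were followed through RNA immunoprecipitation sequencing (RIP-seq) of nuclear RNA from embryonic stem (ES) cells, made with an antibody against Mettl3 or against Zfp217. All protein-coding transcripts with such a symbol were taken from both deposited tables, except those of Zfp217, the target of one of the antibodies. This gave 250 genes with 343 transcripts, of 6505 protein-coding genes with 8672 transcripts in either table. For Mettl3, 231 of the Zfp genes were listed (290 transcripts), and for Zfp217, 134 (157 transcripts). Each table lists only transcripts with at least 1 FPKM (fragments per kilobase of transcript, scaled to sequencing depth) in the RIP and at least 1.5-fold more than in the input. A listed transcript is therefore above the input by selection, and the level of an unlisted one is not known.

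The cells were CCE, a line of mouse ES cells grown without feeders on gelatin, in serum with leukemia inhibitory factor (LIF). They were untreated, and the labels name no genetic change. Nuclei were isolated, the lysate was incubated with an antibody, complexes were collected on protein G beads, and the RNA was sequenced. Input, Mettl3 RIP and Zfp217 RIP had 1 library each, so no p-value or replicate error is given, and every ratio compares libraries, not conditions. No RIP made with an unrelated antibody was used here, so RNA held by beads or antibody alone was not measured. The estimated depth was 10250000 scaled fragments for the Mettl3 RIP, 7050000 for the Zfp217 RIP and 5950000 for the input (6100000 from the Zfp217 table). Of 10 ES cell markers, 8 were listed in each table, and Tdgf1 and Zfp42 in neither. Of the fibroblast, primitive endoderm and neural markers, 0 of 5 each were listed, which says only that none passed the limits of the tables.

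Most Zfp proteins carry C2H2 fingers, small folds held by a zinc ion that read DNA bases, and tandem arrays of fingers are joined by short linkers of conserved sequence. Many also have a KRAB domain, which recruits the corepressor Trim28 (KAP1) to silence transposable elements and imprinted regions, and these genes lie in clusters that grew by duplication. A few members are of other kinds: Zfp36 and its relatives bind AU-rich mRNA through CCCH fingers and bring the CCR4-NOT deadenylase. Methylation of adenosine in mRNA to m6A is catalysed by Mettl3. Zfp217 binds DNA through C2H2 fingers and is found in repressor complexes on chromatin.

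The repeated finger units are visible in the coding sequences. Below is 1 finger of each of 5 genes on which the results turn, from linker to linker, 5′ to 3′, as the coding strand of GENCODE M21 transcripts (GRCm38). Capitals mark the linker, found as the in-frame motif ACNGGNGANAANCCN, which spans 5 codons, in the coding strand. Zfp808 had the most linkers. Zfp229 had the highest Mettl3 RIP value of the chromosome 17 cluster described further on. The fingers of Zfp534 and Zfp600 are close in sequence, and both genes had high values in the Mettl3 RIP. A transcript of Zfp652 other than the one shown had the highest ratio of the Zfp217 table at inputs of at least 1 FPKM.
Zfp808: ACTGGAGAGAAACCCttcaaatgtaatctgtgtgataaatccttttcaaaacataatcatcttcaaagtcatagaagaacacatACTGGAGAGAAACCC
Zfp229: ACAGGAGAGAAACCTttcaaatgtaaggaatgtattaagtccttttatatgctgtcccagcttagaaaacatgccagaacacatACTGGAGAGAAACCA
Zfp534: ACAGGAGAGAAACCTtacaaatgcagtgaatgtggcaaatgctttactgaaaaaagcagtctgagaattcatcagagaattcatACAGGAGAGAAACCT
Zfp600: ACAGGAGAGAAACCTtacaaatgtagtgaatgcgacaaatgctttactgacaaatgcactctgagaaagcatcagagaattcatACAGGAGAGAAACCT
Zfp652: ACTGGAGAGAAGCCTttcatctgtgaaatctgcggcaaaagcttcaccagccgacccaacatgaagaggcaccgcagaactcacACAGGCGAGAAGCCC
Each stretch is 99 bases long. It starts at base 550 of the coding sequence of Zfp808, 1003 of Zfp229, 871 of Zfp534, 820 of Zfp600 and 1303 of Zfp652. The Zfp534 and Zfp600 fingers were identical at 91 of 99 bases (91.9%), whereas those of Zfp229 and Zfp652 matched at 57 (57.6%).

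In GRCm38 these genes lie on chromosome 13 from 62129886 to 62236144 (Zfp808, plus strand), chromosome 17 from 21730795 to 21769342 (Zfp229, plus), chromosome 4 from 147673502 to 147702553 (Zfp534, minus) and from 146156824 to 146198755 (Zfp600, plus), and chromosome 11 from 95712673 to 95835115 (Zfp652, plus). A linker was found in 157 of the 220 Zfp genes with a transcript matched to M21 (71.4%). It was found in 104 of the other protein-coding genes listed (1.88%) and in 1.45% of 66743 annotated coding transcripts. A matched transcript without an annotated coding sequence, such as that of Zfp125, was counted as having no linker. Of the Zfp genes, 91 had 5 or more linkers (41.4%), with a maximum of 18 in Zfp808. The Zfp transcripts had a median GC content of 44.7%, against 49.3% for other protein-coding genes, and a longer coding sequence (1641 against 1191 bases). The letters GGACT, a form of the m6A consensus read here on the transcript strand only, were present in 88.6% of Zfp transcripts and 88.0% of the others, at a median of 0.80 and 1.0 per kilobase.

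Near-identical copies make some values uncertain. Of the 288 matched Zfp transcripts, 47 shared at least 20% of their 50-base stretches, on either strand, with another gene, and 107 shared none. The sources used here do not say how the authors divided reads between such copies. The symbols also follow an older annotation: 18 Zfp genes carry another name in M21, and a transcript listed as Zfp534 now belongs to Gm8935.

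The first question was which table lists each Zfp gene. Of the 250 genes, 115 were listed in both tables (46.0%), 116 for Mettl3 only (46.4%) and 19 for Zfp217 only (7.6%). Over all protein-coding genes of either table these shares were 47.9%, 33.7% and 18.4%. Thus 49.8% of the Zfp genes listed for Mettl3 were also listed for Zfp217, and 85.8% of those listed for Zfp217 were also listed for Mettl3, against 58.7% and 72.3% of all protein-coding genes. Zfp genes made up 4.35% of the protein-coding genes listed for Mettl3 and 3.11% of those listed for Zfp217. By transcript ID, 238 of the 393 protein-coding Zfp genes of M21 were listed (60.6%), against 26.7% of all 21951 protein-coding genes. Both shares are over all annotated genes, whether or not expressed in these cells. The 238 are counted by their M21 name, whatever symbol the tables give, so they are not the same set as the 250.

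The larger Mettl3-only share was also present at a higher level. With a RIP value of at least 2 FPKM, 103 of 190 Zfp genes were listed for Mettl3 only (54.2%) and 10 for Zfp217 only (5.26%), against 40.8% and 19.4% of all protein-coding genes. The Mettl3 RIP was the more deeply sequenced of the RIPs, and the part of depth in this difference was not tested. Both tables share the input library. Among the 115 genes in both tables, 96 were listed with the same transcript and 19 with different transcripts only.

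**Figure D1:**
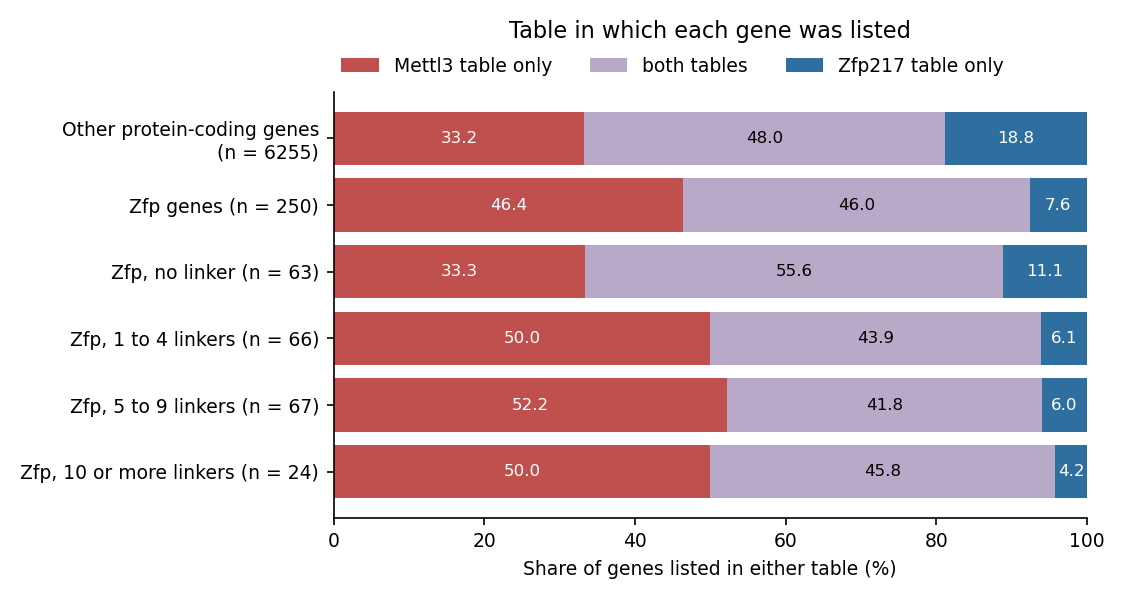
Share (%) of protein-coding genes listed in the Mettl3 table only, in both tables or in the Zfp217 table only, for other protein-coding genes, all Zfp genes, and Zfp genes by the number of linker motifs in the coding sequence. Zfp217-only genes are 7.6% of Zfp genes and 18.8% of the other genes.

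A gene missing from a table need not differ between the RIPs, because it may lie just under the limit. For each transcript listed once, the limit of the other table was taken as the larger of 1 FPKM and 1.5 times its input. Of 186 Zfp transcripts listed for Mettl3 only, 35 were at least 2-fold over the limit they missed in the Zfp217 table (18.8%, against 20% of all protein-coding transcripts). Of 53 listed for Zfp217 only, 11 were (20.8% against 20.1%). The other Zfp transcripts listed once lay within 2-fold of the limit, so for most genes the tables do not show a large difference between the antibodies.

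Genes listed for Mettl3 only included the most abundant Zfp transcripts. Zfp640 was at 28.7 FPKM in the input and 59.1 in the Mettl3 RIP, 2.06-fold higher (95% counting interval 1.69 to 2.53). It would have needed 43.5 FPKM to be listed for Zfp217, and it shared 72.5% of its stretches with another gene. Zfp125 was at 27.3 and 54.6 FPKM, 2.0-fold higher. Zfp808 was at 10.8 and 28.1 FPKM (2.61-fold, interval 2.20 to 3.14), with 46.4% of its stretches shared. Zfp600, whose finger shown above is close to that of Zfp534, was at 3.59 and 20.7 FPKM, 5.76-fold higher (4.60 to 7.26). Of its stretches, 84.4% are found in other genes. Zfp961 was at 11.4 and 18.2 FPKM (1.60-fold), and Zfp828, now named Champ1, at 10.2 and 17.4 FPKM (1.70-fold). Of these 6, only Zfp600 exceeded the limit of the Zfp217 table by more than 2-fold (3.80-fold).

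The 19 genes listed for Zfp217 only had low values. The highest was Zfp326, a subunit of a complex that couples transcription to splicing, at 2.02 FPKM in the input and 3.08 in the Zfp217 RIP (1.53-fold). Zfp707 was listed at 0 in the input and at 2.91 FPKM in the RIP, and Zfp58 was near 0 in the input and at 2.52 FPKM. Zfp444 was at 1.06 and 2.07 FPKM (1.95-fold, interval 0.86 to 4.49), Zfp688 at 0.342 and 2.05 FPKM (5.99-fold, 1.27 to 51.1) and Zfp185 at 1.15 and 1.87 FPKM (1.62-fold, 0.97 to 2.78). The wide intervals reflect few reads, and those of Zfp444 and Zfp185 include equality.

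The second question was how far each RIP stood above the input. Zfp transcripts of the Mettl3 table had a median of 3.43 FPKM in the RIP (quartiles 1.85 and 6.21, range 1.01 to 59.1) and 1.06 in the input, close to the RIP median of 3.21 over all protein-coding transcripts. The input was under 0.01 FPKM for 67 of them (23.1%, against 27.7% of all). After low transcripts were left out, 239 of 290 remained. Of these, 109 were at least 2-fold above input on the log2(FPKM + 1) scale (45.6%), against a background of 48.4% of protein-coding transcripts. By gene, 101 of 205 passed (49.3% against 50.1%). The median log2 ratio was 0.95 for Zfp and 0.98 for all. Once listed, Zfp transcripts thus stood about as far above the input as other mRNAs.

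In the Zfp217 table the Zfp median was 2.29 FPKM in the RIP (quartiles 1.56 and 3.73, range 1.01 to 14) and 0.647 in the input, and the median RIP value of all protein-coding transcripts was 2.63. The input was under 0.01 FPKM for 47 (29.9%, against 37.1% of all). Of 157 transcripts 116 remained after low ones were left out, and 43 of them were at least 2-fold above input (37.1% against a background of 45.2%). By gene, 41 of 104 passed (39.4% against 45.9%). The median log2 ratio was 0.80 for Zfp and 0.91 for all. Because a transcript near 0 in the input passes the 2-fold rule once it is kept, the smaller share of such inputs among Zfp transcripts moves with the lower count, and its part was not tested. With both values at least 1 FPKM, 52 of 151 Zfp transcripts for Mettl3 were at least 2-fold above input (34.4%, background 34.5%), and 5 of 57 for Zfp217 (8.77%, background 20.7%). Among transcripts with at least 1 FPKM in the input, the median plain ratio was 1.89 for Zfp and 1.87 for all, and for Mettl3 2.09 and 2.07. In both RIPs, 29 of 218 genes passed (13.3%, background 16%), 72 passed in the Mettl3 RIP alone (33.0%, background 24.6%) and 12 in the Zfp217 RIP alone (5.50%, background 11.9%).

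**Figure D2:**
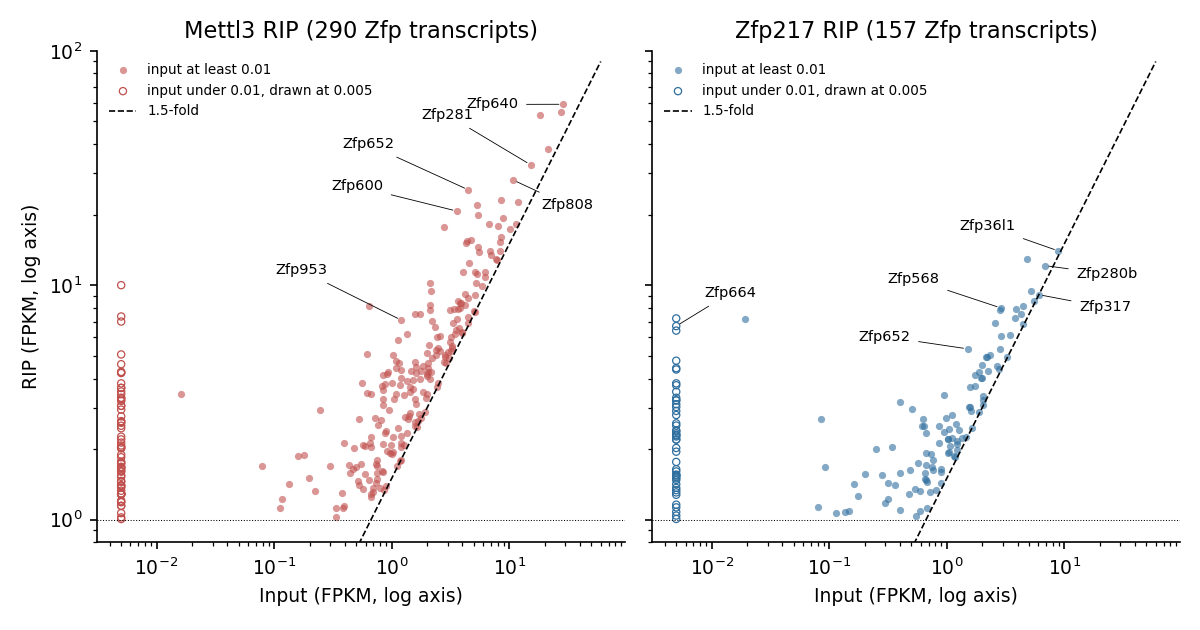
RIP against input FPKM (log axes) of each Zfp transcript in the Mettl3 table (left, 290) and the Zfp217 table (right, 157). The dashed line is the 1.5-fold limit and the dotted line the limit of 1 FPKM, open circles have an input under 0.01 FPKM, and the highest points reach 59.1 FPKM for Mettl3 and 14 for Zfp217.

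Counting intervals mostly lay above equality, which is partly set in advance because only ratios of at least 1.5 were listed. For Zfp transcripts with a matched length and an input of at least 0.01 FPKM, the lower bound of the interval was above 1 for 180 of 193 in the Mettl3 table (93.3%) and 77 of 97 in the Zfp217 table (79.4%). The median transcript had an estimated 142 reads in the Mettl3 RIP and 32.9 in the input, and 50.7 and 18.9 in the Zfp217 table.

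The highest Mettl3 ratios with both values at least 1 FPKM belonged to finger genes of low or moderate input. The transcript ENSMUST00000066794, listed as Zfp534 and placed by M21 on chromosome 3 from 12855836 to 12858633 (Gm8935), was at 2.81 FPKM in the input, 17.7 in the Mettl3 RIP and 5.35 in the Zfp217 RIP. The Mettl3 RIP was thus 6.30-fold above the input (4.65 to 8.85), with 81.8% of its stretches shared, so its reads cannot be told apart from those of its copies with certainty. Zfp953, with few shared stretches (5.21%), was at 1.21 FPKM in the input, 7.10 in the Mettl3 RIP (5.87-fold, 4.04 to 8.56) and 2.17 in the Zfp217 RIP (1.77-fold, 1.15 to 2.73).

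Zfp652, a partner of the corepressor Cbfa2t3, had a different transcript in each table. Its long transcript ENSMUST00000107717 was at 4.50 FPKM in the input and 25.5 in the Mettl3 RIP, 5.67-fold higher (5.01 to 6.45), and was not listed for Zfp217. The shorter ENSMUST00000091565 was at 1.51 FPKM in the input and 5.35 in the Zfp217 RIP, 3.56-fold higher (2.24 to 5.90), and was not listed for Mettl3. Zfp644, a partner of the histone methyltransferases G9a and GLP, also had transcripts apart: ENSMUST00000112696 was 5.13-fold higher in the Mettl3 RIP (1.13 to 5.81 FPKM), and ENSMUST00000045466 2.0-fold higher (4.42 to 8.82 FPKM). The split of reads between transcripts of a gene adds an error that the intervals do not cover.

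Of the other high Mettl3 ratios, Zfp260 was at 2.12 FPKM in the input and 10.3 in the RIP (4.84-fold, interval 3.50 to 6.71), and Zfp97 at 1.08 and 4.75 FPKM (4.41-fold, 83.1% of its stretches shared). Both were listed for Mettl3 only. Zfp937 was at 1.03, 5.03 and 2.44 FPKM in the input, the Mettl3 RIP and the Zfp217 RIP, and Zfp617 at 1.57, 7.5 and 3.69 FPKM. Both had more in the RIP of Mettl3 than of Zfp217, and they shared 31.5% and 44.8% of their stretches with other genes. One transcript of Zfp142 was 4.62-fold above input in the Mettl3 RIP, at 6.22 against 1.35 FPKM.

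The Zfp217 RIP gave lower ratios, with a maximum of 3.56 against 6.30 for Mettl3 at inputs of at least 1 FPKM. Zfp655 was at 2.83 FPKM in the input and 7.87 in the Zfp217 RIP, 2.78-fold higher (2.12 to 3.73). Zfp568, a KRAB protein that silences a placental promoter of Igf2, was 2.76-fold higher in the Zfp217 RIP for ENSMUST00000148442 (8.0 against 2.90 FPKM), which was at 4.95 FPKM in the Mettl3 RIP. Zfp740 was at 2.58 FPKM in the input, 6.91 in the Zfp217 RIP and 5.26 in the Mettl3 RIP. Zfp607, Zfp26 and Zfp345 were 2.52, 2.39 and 2.31-fold above input in the Zfp217 RIP, and 3.13, 4.36 and 3.71-fold in the Mettl3 RIP. Of the Zfp345 stretches, 30.6% are shared with other genes.

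The most abundant Zfp transcript of the Zfp217 RIP was Zfp36l1, an mRNA-decay factor, at 14 FPKM against 8.90 in the input (1.57-fold, 1.22 to 2.04). Zfp532 followed at 12.9 FPKM and Zfp280b at 12.1 FPKM (1.78-fold, 1.5 to 2.11). Zfp146 was at 9.49, Zfp317 at 9.12, Zfp141 at 8.58 and Zfp639 at 8.12 FPKM. Zfp141 had over 2-fold more in the Mettl3 RIP (19.9 FPKM), whereas Zfp639 had less there (6.92 FPKM), and the Zfp317 transcript was not listed for Mettl3.

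Grouped by role, ES cell regulators were listed for Mettl3 in 6 of 9 genes and for Zfp217 in 5, and 4 of 6 and 2 of 5 kept genes were at least 2-fold above input, against 50.1% and 45.9% of all protein-coding genes. The median log2 ratios were 0.87 (all protein-coding: 0.98) and 0.90 (0.91). Zfp281, which binds the Nanog promoter, was at 15.2 FPKM in the input and 32.6 in the Mettl3 RIP for ENSMUST00000047734, 2.15-fold higher (1.93 to 2.39). Its other transcript was near 0 in the input and at 10.0 and 7.22 FPKM in the Mettl3 and Zfp217 RIPs. Zfp281 passed the 2-fold rule for Zfp217 through that transcript alone. The other gene of this list that passed for Zfp217 was Zfp57, described below with the KRAB proteins. In both RIPs Zfp57 passed only through a transcript listed at 0 in the input, at 3.43 FPKM for Mettl3 and 4.43 for Zfp217. Zfp322a, a regulator of Pou5f1 and Nanog, was at 3.39 FPKM in the input, 7.89 in the Mettl3 RIP (2.32-fold, 1.85 to 2.94) and 6.14 in the Zfp217 RIP (1.79-fold, 1.41 to 2.31).

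Zfp143, a promoter-binding factor of ES cells, was listed with different transcripts. These were at 1.65-fold for Mettl3 (2.81 against 1.70 FPKM) and 2.25-fold for Zfp217 (4.94 against 2.19 FPKM). Zfp143 passed the 2-fold rule only for Mettl3, through a further transcript at 0 in the input and 2.07 FPKM in the RIP. Zfp462, in both tables, was at 8.40 FPKM in the input and 14 in the Mettl3 RIP for ENSMUST00000098070 (1.67-fold). Its transcript ENSMUST00000079605 was 1.97-fold above input for Mettl3 (1.49 FPKM) and 2.36-fold for Zfp217 (1.80 FPKM). Zfp706 was at 6.98 and 13.5 FPKM (1.93-fold, Mettl3 table only). Zfp42 (Rex1), Zfp296 and Zfp521 were in neither table.

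The genes of the CCCH family were listed in 3 of 4 cases in both tables. On the log2(FPKM + 1) scale, all 3 were at least 2-fold above input in the Mettl3 RIP and 0 of 3 in the Zfp217 RIP (50.1% and 45.9% of all protein-coding genes), with median log2 ratios of 1.12 and 0.70 (all: 0.98 and 0.91). The added 1 FPKM decides the count for Zfp217, where the plain ratios were 2.15 for Zfp36, 1.57 for Zfp36l1 and 2.13 for Zfp36l2. Zfp36 was at 1.17, 3.74 and 2.56 FPKM in the input, the Mettl3 RIP and the Zfp217 RIP, Zfp36l1 at 8.81, 19.3 and 14, and Zfp36l2 at 2.33, 6.63 and 5.02. Each of the 3 was highest in the Mettl3 RIP and lowest in the input. The ratio of the Mettl3 to the Zfp217 RIP was 1.46 for Zfp36 (interval 1.02 to 2.09), 1.38 for Zfp36l1 (1.15 to 1.66) and 1.32 for Zfp36l2 (1.06 to 1.66). Of the Zfp36l1 stretches, 48.6% are shared with another gene. Zfp36l3 was not listed.

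KRAB proteins known for silencing imprinted genes or retroelements were listed in 7 of 8 cases (Zfp445 was not). For Mettl3, 5 of 6 kept genes were at least 2-fold above input (all protein-coding genes: 50.1%), with a median log2 ratio of 1.13 (all: 0.98). For Zfp217, 3 of 4 were (all: 45.9%), with a median of 1.82 (all: 0.91). Zfp57, which keeps methylation at imprinted regions, was at 11.8 FPKM in the input and 22.7 in the Mettl3 RIP for ENSMUST00000069250 (1.92-fold, 1.55 to 2.39). Zfp459 was at 8.43 and 16 FPKM (1.90-fold), the longer Zfp568 transcript ENSMUST00000146074 at 8.03 and 17.9 FPKM (2.23-fold), and the Zfp534 transcript ENSMUST00000117638 at 8.52 and 23.0 FPKM (2.70-fold, 2.25 to 3.27). These 4 transcripts were listed for Mettl3 only, and that of Zfp534 shared 70.4% of its stretches with other genes. In the Mettl3 RIP, Zfp57 and Zfp932 passed the 2-fold rule only through transcripts listed at 0 in the input, at 3.43 and 3.52 FPKM in the RIP.

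Zfp819 was listed at 0 in the input and at 3.81 and 4.37 FPKM in the Mettl3 and Zfp217 RIPs for ENSMUST00000032661. Zfp932 (0 in the input, 3.52 FPKM) was in the Mettl3 table alone. Zfp809, which recognises the primer binding site of murine leukemia virus, was in the Zfp217 table alone (0 in the input, 1.56 FPKM). Of the 4 kept genes behind the Zfp217 median, Zfp57 and Zfp819 were listed at 0 in the input, and Zfp534 was in that table only through the transcript now named Gm8935.

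Of 9 members that bind or process RNA, 5 were listed. Zfp106 was at 21.3 FPKM in the input and 38.1 in the Mettl3 RIP (1.79-fold, 1.67 to 1.91), with 25.2% of its stretches shared. It passed the 2-fold rule only through other transcripts at 0 in the input, at 3.31 FPKM for Mettl3 and 2.20 FPKM for Zfp217. Zfp318 was at 1.64 and 1.52-fold above input in the Mettl3 and Zfp217 RIPs, and the splicing factor Zfp830 at 1.70 and 1.57-fold. Zfp598, a ubiquitin ligase that senses collided ribosomes, was in the Zfp217 table alone at 1.64 FPKM, with the input at 0. Zfp638, Zfp346, Zfp385a and Zfp207 were not listed. In this group 1 of 3 kept genes for Mettl3 and 1 of 4 for Zfp217 were at least 2-fold above input (background 50.1% and 45.9%), with medians of 0.60 and 0.49. Of the other ligases, Zfp91, of the ubiquitin system, was at 8.41 and 15.3 FPKM (1.82-fold), and Zfp451, a SUMO ligase, at 4.99 and 7.75 FPKM (1.55-fold), both in the Mettl3 table alone.

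Partners of corepressor and chromatin complexes were listed in 12 of 16 cases, with 7 of 12 kept genes at least 2-fold above input for Mettl3 (median log2 0.91) and 5 of 9 for Zfp217 (1.10). These counts lie near the background of 50.1% and 45.9%. For Zfp217 the 5 were Zfp384, Zfp532, Zfp592, Zfp644 and Zfp687. Of these, Zfp592 and Zfp644 passed only with an input under 0.01 FPKM, and Zfp384 only with one of 0.0846 FPKM. For Mettl3, Zfp384, Zfp592 and Zfp687 passed only with an input under 0.01 FPKM. Zfp592, Zfp687 and Zfp532 encode subunits of a complex with the chromatin reader Zmynd8. Zfp592 was near 0 in the input and at 4.60 and 2.80 FPKM in the Mettl3 and Zfp217 RIPs, and Zfp687 was listed at 0 and at 3.31 and 2.33 FPKM. Zfp532 had 4 listed transcripts, the highest at 18.2 FPKM in the input and 53.5 in the Mettl3 RIP (2.93-fold), and another at 4.74 in the input, 15.6 in the Mettl3 RIP and 12.9 in the Zfp217 RIP. Where both RIPs listed a transcript of these 3 genes, the Mettl3 value was the larger.

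Zfp148 was at 1.01, 3.84 and 2.20 FPKM in the input, the Mettl3 RIP and the Zfp217 RIP for ENSMUST00000165418, and Zfp292 at 3.83, 8.43 and 7.95 FPKM. Zfp609 was in both tables. Its transcript ENSMUST00000159109, listed for Mettl3 only, was at 5.14 FPKM in the input and 9.08 in the RIP (1.77-fold). Its transcript ENSMUST00000046309, with an input under 1 FPKM, was at 1.51 FPKM in the Mettl3 RIP (7.54-fold) and 1.57 in the Zfp217 RIP (7.77-fold). That transcript was too low to be kept for the 2-fold counts. Zfp639 was at 4.42, 6.92 and 8.12 FPKM, slightly more in the Zfp217 RIP, with an interval of the ratio between the RIPs (0.63 to 1.18) that includes equality. Zfp516 (1.58-fold) and Zfp746 (1.55-fold) were in the Mettl3 table alone. Zfp384 had the most listed transcripts, 5, all under 3.1 FPKM. Zfp335, Zfp131, Zfp703 and Zfp503 were not listed.

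**Figure D3:**
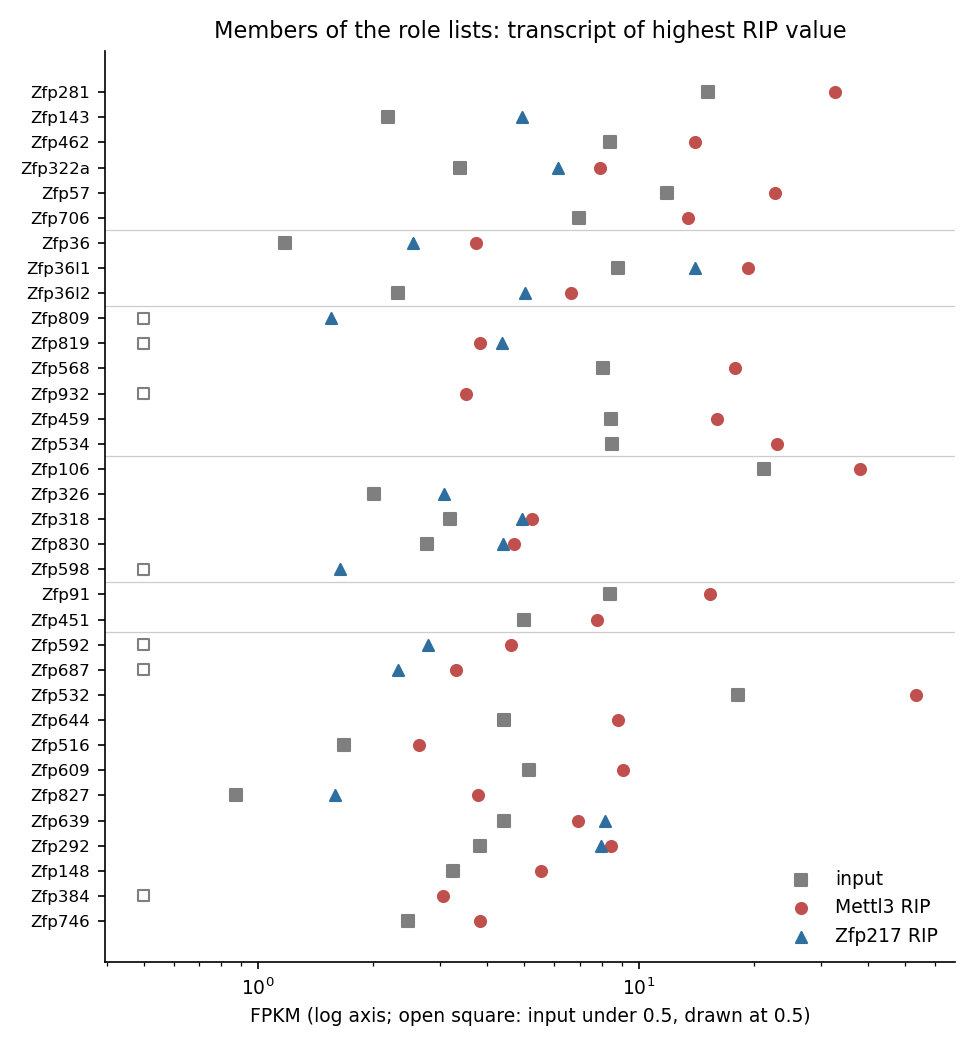
FPKM (log axis) of the listed members of the role lists in the input (squares), the Mettl3 RIP (circles) and the Zfp217 RIP (triangles), for the transcript with the highest RIP value of each gene. A missing symbol means that the transcript is not in that table, grey lines separate the lists, and the highest value is that of Zfp532 (53.5 FPKM).

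The third question was how the RIPs compare directly, without the input. Of the Zfp transcripts, 104 were in both tables. Their Mettl3 RIP value was higher in 70 (67.3%), against 57.7% of 2813 protein-coding transcripts, and the median log2 ratio of Mettl3 to Zfp217 RIP was 0.25 (quartiles -0.14 and 0.55) against 0.08. The log2 ratios and the 2-fold counts have 1 FPKM added to both RIP values. On this scale, at least 2-fold more in the Mettl3 RIP was found for 6 (5.77%, background 5.15%). At least 2-fold more in the Zfp217 RIP was found for 2 (1.92%, background 2.92%). With 0.1 FPKM added instead, these counts were 14 and 4. The plain ratios of named transcripts below have nothing added and lie further from equality. The median plain ratio over all protein-coding transcripts was 1.08, a shift of 0.11 on the log2 scale. With that shift removed, the Mettl3 RIP was higher in 60 of 104 Zfp transcripts (57.7%), against 49.98% of all by construction. The Zfp median was then 0.16, and the 2-fold counts became 4 and 3 (4.34% and 3.38% of all).

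Among the transcripts furthest towards Mettl3, the Zfp534 transcript now named Gm8935 had a ratio between the RIPs of 3.30 (interval 2.66 to 4.15) and Zfp953 of 3.27 (2.53 to 4.32). A transcript listed as Zfp936, and in M21 as Gm3604, was at 5.07 against 1.61 FPKM with the input at 0, a ratio of 3.16 (1.89 to 5.79). Zfp493 was at 3.42 against 1.12 FPKM (3.05, 1.93 to 4.85), and Zfp827 at 3.79 against 1.59 FPKM (2.38, 1.74 to 3.37).

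Towards Zfp217, Zfp664 was at 6.70 FPKM in the Zfp217 RIP and 1.4 in the Mettl3 RIP with the input at 0, a ratio of 0.209 (0.153 to 0.284). Zfp934 was at 3.18 against 1.15 FPKM (0.360), Zfp428 at 6.40 against 2.63 FPKM (0.411, 0.249 to 0.673), Zfp64 at 7.20 against 3.42 FPKM (0.475, 0.351 to 0.633) and Zfp821 at 2.97 against 1.67 FPKM (0.561). All 5 had under 1 FPKM in the input.

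**Figure D4:**
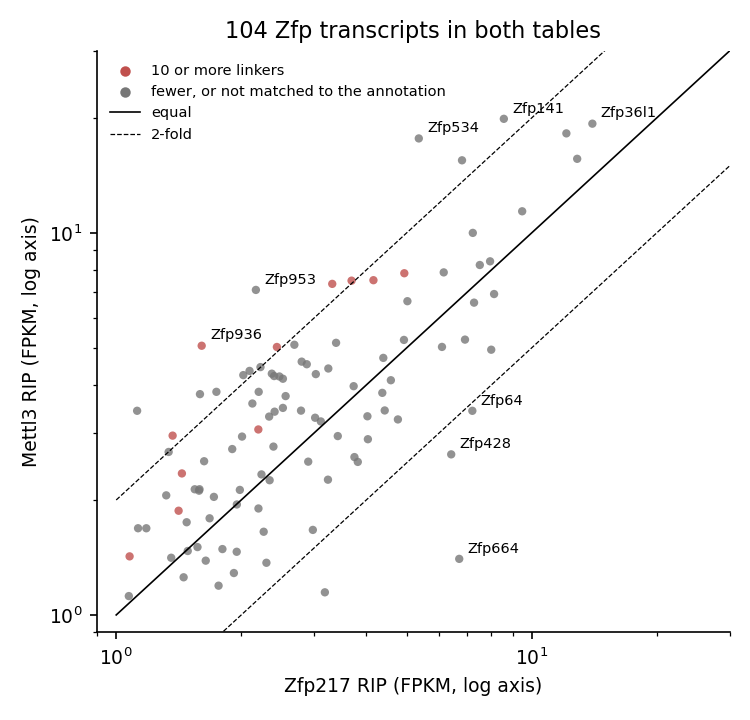
Mettl3 RIP against Zfp217 RIP FPKM (log axes) for the 104 Zfp transcripts in both tables, with lines of equality and of 2-fold difference. The 11 transcripts with 10 or more linkers (red) all lie above the line of equality, and Zfp664 lies furthest below it.

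The Zfp genes differed among themselves by the number of linkers. Only linkers matching the motif were counted, and the fingers themselves were not. The 63 genes without a linker include Zfp125 and Zfp352, whose matched transcripts have no annotated coding sequence. Of the 63, 33.3% were listed for Mettl3 only and 11.1% for Zfp217 only. The shares were 50% and 6.06% for 66 genes with 1 to 4 linkers, 52.2% and 5.97% for 67 with 5 to 9, and 50% and 4.17% for 24 with 10 or more. For Zfp genes without a linker, the Mettl3-only share was close to that of other protein-coding genes (33.2%), and the Zfp217-only share was below theirs (18.8%).

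Between the RIPs, the median log2 ratio of Mettl3 to Zfp217 was 0.07 with no linker (37 transcripts, 20 higher in the Mettl3 RIP), 0.16 with 1 to 4 (21, 15 higher), 0.33 with 5 to 9 (20, 14 higher) and 0.72 with 10 or more (11, all higher). The last class holds few transcripts; pooled with the class before it, the median over 31 transcripts was 0.42, with 25 higher. Without transcripts that share at least 20% of their stretches the medians were 0.04, 0.16, 0.39 and 0.59, the last over 6 transcripts. The 11 transcripts of the last class ranged from a ratio of 1.32 (Zfp2, 1.42 against 1.08 FPKM) to 3.16 (the transcript listed as Zfp936), and Zfp62, with no shared stretch, was at 7.36 against 3.31 FPKM (2.22). These genes are named for being in that class, after their values were seen.

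Base composition moved with the number of linkers. The median GC content was 48.3%, 46.6%, 41.5% and 38.7% from no linker to 10 or more, and the median count of GGACT was 0.94, 0.91, 0.75 and 0.48 per kilobase. By GC content, the median log2 ratio of Mettl3 to Zfp217 RIP was 0.58 for Zfp transcripts under 40% GC (16 of 16 higher in the Mettl3 RIP), 0.26 from 40 to 45% (20 of 26), 0.08 from 45 to 50% (12 of 21) and -0.06 at 50% or more (12 of 26). Other protein-coding transcripts had medians of 0.47, 0.23, 0.15 and -0.03, with 78.6%, 68.3%, 63.2% and 47.5% higher in the Mettl3 RIP, against 100%, 76.9%, 57.1% and 46.2% of Zfp transcripts. The class under 40% GC holds few Zfp transcripts, and no difference within a class was tested.

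Under 45% GC, the median was 0.54 for 24 Zfp transcripts with 5 or more linkers (22 higher) and 0.19 for 8 without a linker (6 higher). Other protein-coding transcripts with 5 or more linkers, 12 in number and with a median GC content of 38.1%, had a median of 0.69 (11 higher). Other transcripts without a linker had a median of 0.25 under 45% GC (594 transcripts, 415 higher), and of 0.07 at any GC content (median GC 49.4%). In listing, 63.0% of Zfp genes under 40% GC were listed for Mettl3 only and 0 of 54 for Zfp217 only, against 41.4% and 15.5% at 50% or more. Among other genes the Mettl3-only share went from 48.6% to 27.1% and the Zfp217-only share from 4.29% to 26.6% over the same classes. The parts of base composition and of the linker count in these differences were not tested.

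**Figure D5:**
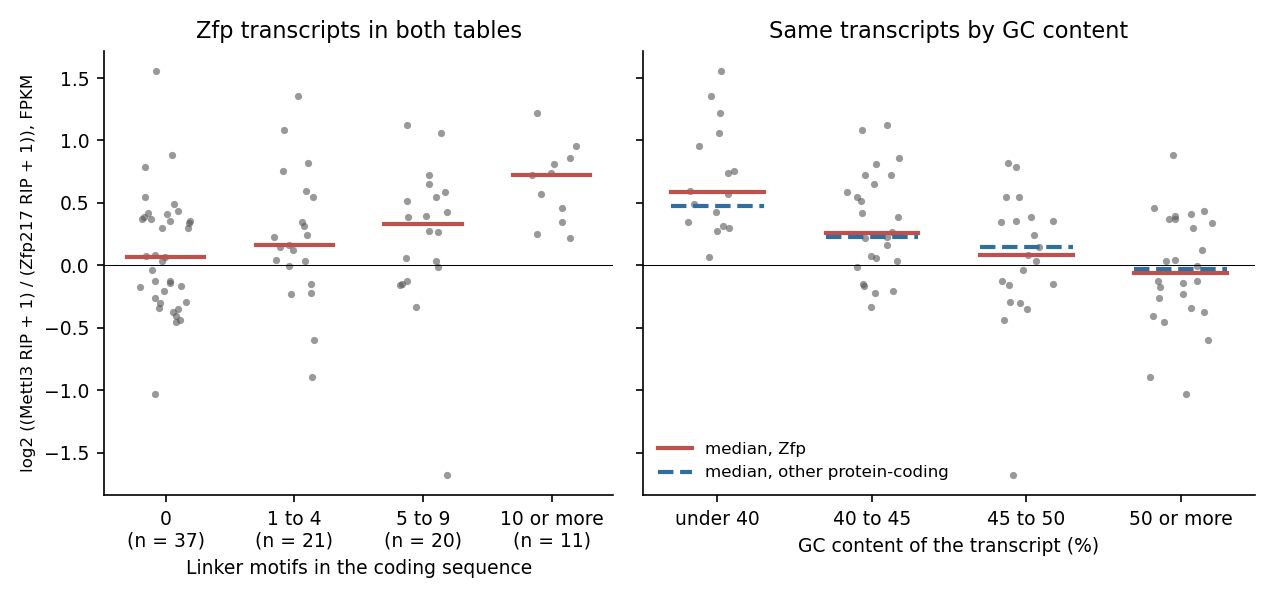
log2 ratio of Mettl3 RIP to Zfp217 RIP (FPKM + 1) of Zfp transcripts in both tables, by number of linkers (left) and by GC content of the transcript (right). Each point is a transcript, red bars are Zfp medians (0.07 to 0.72 by linkers) and dashed blue bars the medians of other protein-coding transcripts, which follow the same course over GC content (0.47 to -0.03).

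Zfp genes in clusters were set beside those outside. Clusters were runs of at least 4 annotated Zfp genes with gaps of at most 500000 bases, which gave 23 clusters. Of 108 listed genes in clusters, 54.6% were listed for Mettl3 only, 37.0% in both tables and 8.33% for Zfp217 only. Of 112 outside, the shares were 37.5%, 56.3% and 6.25%. Genes in clusters had a median of 5 linkers and those outside 1, and 22 of the former and 14 of the latter shared at least 20% of their stretches with another gene.

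The cluster on chromosome 17 from 21008903 to 23599487 (GRCm38), chosen after its values were seen, held 14 listed genes of 23 annotated. For Mettl3 only, 13 were listed (Zfp13, Zfp160, Zfp229, Zfp40, Zfp51, Zfp52, Zfp53, Zfp760, Zfp820, Zfp942, Zfp943, Zfp944 and Zfp947), and Zfp945 was in both tables. Zfp229 was at 4.26 FPKM in the input and 15.1 in the Mettl3 RIP, 3.55-fold higher (2.90 to 4.38). The other 12 had ratios from 1.58 (Zfp13) to 3.48 (Zfp40). Zfp945 was at 1.09, 4.46 and 2.22 FPKM in the input, the Mettl3 RIP and the Zfp217 RIP. Only Zfp229 exceeded its limit in the Zfp217 table by over 2-fold (2.34-fold), and the others by 1.04-fold (Zfp13) to 1.95-fold (Zfp820), so most lay near the limit.

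A cluster on chromosome 13 from 67038596 to 67827002 also had 14 listed genes of 23, with 9 for Mettl3 only, 4 in both tables (Zfp493 and Zfp953 among them) and 1, Zfp58, for Zfp217 only. On chromosome 2 from 150114406 to 150485091, all 3 listed genes, Zfp345, Zfp442 and Zfp937, were in both tables. On chromosome 7 from 12415153 to 12985714, 3 of 5 listed genes were in the Zfp217 table alone (Zfp446, Zfp551 and Zfp606), all under 1.3 FPKM in the RIP. The larger Mettl3-only share was thus not present in every cluster.

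The proteins with which Zfp products work were read from lists of genes. Of 19 genes for Trim28 and its heterochromatin partners, 10 were listed in each table, with 7 of 9 kept genes at least 2-fold above input for Mettl3 and 6 of 9 for Zfp217, against 50.1% and 45.9% of all protein-coding genes. The median log2 ratios were 1.98 and 1.68, against 0.98 and 0.91. These medians were those of Atrx (Mettl3) and Setdb1 (Zfp217), both at 0 in the input. With an input of at most 0.0178 FPKM, Atrx, Daxx and Uhrf1 passed in both RIPs, Dnmt3b for Mettl3, and Hdac2 and Setdb1 for Zfp217. Cbx5, Chd4 and Pphln1 passed with higher inputs for Mettl3, and Chd4 alone for Zfp217. Trim28 itself was in neither table. Cbx5, which encodes the heterochromatin protein HP1 alpha, was at 21.5 FPKM in the input and 131 in the Mettl3 RIP (6.10-fold). Chd4, the remodeller of the NuRD complex, was at 4.40 FPKM in the input, 15.6 in the Zfp217 RIP (3.55-fold) and 7.88 in the Mettl3 RIP for ENSMUST00000112392. Its transcript ENSMUST00000124317 was higher in the Mettl3 RIP, at 2.65 FPKM (6.28-fold above input), than in the Zfp217 RIP (2.81-fold above input).

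Uhrf1, which guides maintenance methylation of DNA, was listed at 0 in the input and at 9.85 and 11.0 FPKM in the Mettl3 and Zfp217 RIPs. Of 15 genes of the CCR4-NOT deadenylase and its adaptors, through which the Zfp36 family acts, 10 were listed for Mettl3 and 5 for Zfp217. Cnot4 was at 2.36 FPKM in the input, 12.4 in the Mettl3 RIP (5.25-fold) and 4.02 in the Zfp217 RIP (1.69-fold). Tob1, an adaptor of the deadenylase, was at 5.79, 13.9 and 10.4 FPKM in the same order. In this list 5 of 9 kept genes for Mettl3 and 2 of 5 for Zfp217 were at least 2-fold above input, near the background of 50.1% and 45.9%. The median log2 ratios were 1.08 and 0.74. For Mettl3 the genes were Cnot2, Cnot4, Cnot7, Tob1 and Tob2, and for Zfp217 Cnot2 and Cnot7. Cnot2 passed only with an input under 0.01 FPKM. Cnot7 passed at 0 in the input and, through another transcript, at an input of 0.615 FPKM for Mettl3 (3.96-fold) and 0.622 for Zfp217 (5.35-fold).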

How the data were processed

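RIP-seq libraries of the Mettl3 antibody, the Zfp217 antibody and the input were compared, 1 library each, grouped by title and antibody label. The authors deposited 2 tables, 1 per antibody, with a value of the input and of the RIP for each Ensembl transcript. These deposited values were read as FPKM (fragments per kilobase of transcript, scaled to sequencing depth) because the submitters' processing notes name Cufflinks and Cuffdiff, while the file headers name no unit. TopHat2 2.0.8, Bowtie2, CASAVA 1.4 and the build mm9 are named too. What each tool did, its settings and the annotation were not given in the sources used here. Per the file, the authors' log2 fold change in the deposited tables lay within 0.00466 of the log2 of RIP over input FPKM. Both tables hold the same input library, and its values in the table for Mettl3 were 0.989 times those in the other at the median. Ratios therefore used the input of the same table.

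Zfp transcripts were the rows of class protein_coding with a symbol of Zfp and a digit, other than Zfp217. The members, the gene lists and the rules were chosen with earlier results of these data known. Ratios on the log2 scale, of RIP to input and between the RIPs, had 1 FPKM added to both values, so that ratios of low transcripts are understated. Transcripts with a mean of RIP and input of at least 1 FPKM were kept, and a ratio of at least 2-fold on this scale was counted. Named transcripts have ratios of the plain FPKM, with none where the input was under 0.01 FPKM. Named were all members of the role lists; in each table the 10 highest ratios with both values at least 1 FPKM, the 8 highest RIP values and the 6 genes listed there alone with the highest RIP; the 5 highest and 5 lowest ratios between the RIPs; the 5 genes with the most listed transcripts; and any count of 5 or fewer.

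Depth was estimated from the steps of the FPKM values of short noncoding RNAs, as the number of fragments that made most of them whole reads within 0.1: 21 of 22 RNAs in each RIP, and 4 of 4 and 3 of 3 in the input columns of the Mettl3 and the Zfp217 table. The input estimate therefore rests on few RNAs. Intervals of 95% were exact conditional binomial (Clopper-Pearson) intervals on the reads this depth implies. They cover counting error only, not the splitting of reads between transcripts of a gene, and reads without molecular identifiers are not independent molecules. GENCODE M21 on GRCm38, matched by transcript ID (288 of 343 Zfp transcripts, 84.0%), gave lengths, GC content, coding sequences and gene coordinates; the authors' build was not converted. Length, GC and motif counts of a gene are those of 1 listed transcript. Scripts were tested on simulated data. Python 3.11.15, pandas 2.3.3, numpy 2.4.6, SciPy 1.17.1 and matplotlib 3.10.9 were used.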

Additional observations from a re-analysis of the deposited data

Results flagged for a closer look

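Zfp genes also had noncoding transcripts in the tables, which entered no comparison above. The Mettl3 table listed 34 of them, of which 19 were retained introns, 12 processed transcripts and 3 targets of nonsense-mediated decay, and 16 had an input under 0.01 FPKM. The Zfp217 table listed 21, with 13, 7 and 1 of these classes, and 11 with an input under 0.01 FPKM. They were flagged because they carry signal above the input outside the protein-coding rows. The highest in the Zfp217 RIP was a processed transcript of Zfp93 at 6.16 FPKM, with the input at 0. In the Mettl3 RIP the highest was a processed transcript of Zfp664, at 7.75 FPKM in the input and 16.7 in the RIP (2.15-fold); the protein-coding Zfp664 transcript described above was the one furthest towards the Zfp217 RIP. A retained intron of Zfp142 was at 1.90 and 4.66 FPKM in the input and the Mettl3 RIP (2.46-fold), and one of Zfp644 at 1.46 and 3.21 FPKM in the input and the Zfp217 RIP (2.20-fold).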

How the results depend on the processing

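Counts past 2-fold depended on how transcripts near 0 in the input were handled. With both RIP and input at least 1 FPKM, 52 Zfp transcripts (50 genes) passed for Mettl3 and 5 (5 genes) for Zfp217, with 4 genes in both RIPs. Without inputs under 0.01 FPKM, 16 transcripts (16 genes) passed for Zfp217 and 9 genes in both RIPs. A pseudocount of 0.1 FPKM gave 74 transcripts (69 genes) for Zfp217, 55 genes in both RIPs and 18 transcripts apart between the RIPs, and no filter on low values gave 66 transcripts for Zfp217. With a RIP of at least 2 FPKM, an alternative chosen after seeing the data, 10 genes were listed for Zfp217 only. The other settings moved no count by over 1.5 times, and no result reversed. When the input value of the other table was used for the 62 ratios that allow it, the median change was 1.08% and the largest 17.8%. No paired analysis was possible because each group has 1 library, and for the same reason no replicate could be left out. Input depth limits the ratios. Some Zfp transcripts with a matched length and an input of at least 0.01 FPKM had under 10 estimated input reads. These were 31 of 193 in the Mettl3 table and 31 of 97 in the Zfp217 table. Over all Zfp transcripts, matched or not, 67 of 290 and 47 of 157 had an input under 0.01 FPKM.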
